A study of Mus musculus with 6 samples.

Results

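The liver makes most of the proteins that carry poorly soluble cargo in blood, and 8 of their genes were followed here in the livers of 6 male pups: *Alb*, *Ttr*, *Rbp4*, *Gc*, *Ahsg*, *Fetub*, *Ambp* and *Vtn*. The members were all probes of the deposited liver table that carry 1 of these symbols. They came to 9 of 25697 probes and to 8 of 18138 symbols, with *Ahsg* represented by a pair of probes and every other gene by 1. The rule that picks the probes uses gene names and no measured value, but the genes themselves were chosen with earlier results of these data known.

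Total RNA from whole liver was measured on Illumina MouseRef-8 BeadChips, single-colour arrays that give for each probe a mean bead intensity and a detection p-value, its rank among negative control beads. All mice were male, of FVB/N background (FVB in the labels) and at postnatal day 6 (P6). The hSRY-ON group (3 arrays) carried the Signalox-hSRY transgene, 1 copy at the H11 locus, recombined by Cre from the oocytes of *Ddx4-Cre* mothers, so that the ubiquitous CAG promoter drove FLAG-tagged human *SRY* and EGFP from the embryo's first cell onward. Those selected for the arrays did not themselves inherit *Ddx4-Cre*. The hSRY-OFF group (3 arrays) is defined by the methods as the same transgenic line without recombination, in which CAG drives DsRed2 and *SRY* stays silent. The study also describes its controls as littermates with *Ddx4-Cre* alone or with no transgene, and the labels give no genotype beyond hSRY-OFF. The transgene comes from a single line, and each array stands for 1 animal of a biological triplicate. The comparison asks how the liver transcriptome differs once *SRY* is switched on throughout the body. The study reports little suckling, slow growth and fatty livers in hSRY-ON pups, some of which had died by this age. The part of that state in the differences below was not tested.

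As background, hepatocytes secrete these proteins through the endoplasmic reticulum and Golgi without storing them. Albumin, the product of *Alb*, binds fatty acids, bilirubin and hormones and holds the osmotic pressure of plasma, and vitamin D binding protein, the product of *Gc*, belongs to the same gene family. Transthyretin (*Ttr*) carries thyroxine and docks with retinol binding protein (*Rbp4*), which brings vitamin A from liver stores to other tissues. Fetuin-A (*Ahsg*) keeps calcium phosphate in solution, and fetuin-B (*Fetub*) is its close relative and an inhibitor of ovastacin. *Ambp* encodes a precursor cut into alpha-1-microglobulin, which binds heme, and bikunin, the light chain of inter-alpha-inhibitor. Vitronectin (*Vtn*) binds integrins, plasminogen activator inhibitor and the terminal complement complex.

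The proximal promoters of 4 members are given because they set a pair of genes whose probes fell beside a gene that was not detected and one that did not pass the test. They are the 250 bases before the annotated start in RefSeq (GRCm38.p6), written 5′ to 3′ on the strand of the gene, for *Alb* (chr5:90460620-90460869, plus strand), *Vtn* (chr11:78498870-78499119, plus strand), *Gc* (chr5:89457899-89458148, minus strand) and *Ahsg* (chr16:22891765-22892014, plus strand). Capitals mark GTTAAT or its reverse complement ATTAAC, the core of 1 arm of the site bound by hepatocyte nuclear factor 1.
Alb: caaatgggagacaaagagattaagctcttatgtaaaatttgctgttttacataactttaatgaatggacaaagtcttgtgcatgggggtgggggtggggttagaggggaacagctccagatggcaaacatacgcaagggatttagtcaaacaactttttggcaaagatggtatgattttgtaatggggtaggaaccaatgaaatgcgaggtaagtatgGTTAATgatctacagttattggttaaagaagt
Vtn: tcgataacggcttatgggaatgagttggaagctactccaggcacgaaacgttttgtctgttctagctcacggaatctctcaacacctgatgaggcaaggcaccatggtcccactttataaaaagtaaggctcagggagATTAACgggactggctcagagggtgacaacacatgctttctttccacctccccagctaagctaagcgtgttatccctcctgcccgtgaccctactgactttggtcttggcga
Gc: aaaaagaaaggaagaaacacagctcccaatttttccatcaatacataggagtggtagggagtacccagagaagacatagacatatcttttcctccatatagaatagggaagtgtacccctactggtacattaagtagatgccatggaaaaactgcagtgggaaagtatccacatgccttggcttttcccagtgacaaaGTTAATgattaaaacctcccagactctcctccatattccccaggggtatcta
Ahsg: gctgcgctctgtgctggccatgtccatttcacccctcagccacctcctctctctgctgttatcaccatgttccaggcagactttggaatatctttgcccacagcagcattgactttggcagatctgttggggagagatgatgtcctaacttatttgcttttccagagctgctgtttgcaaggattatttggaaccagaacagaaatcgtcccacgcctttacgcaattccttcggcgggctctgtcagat

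Of the 8 member genes, 7 had at least 1 promoter in the RefSeq table, in all 9 promoters. *Ttr*, whose probe also fell, had none and could not be shown. GTTAAT, searched on both strands, lay from 32 to 27 bases before the start of *Alb*, from 52 to 47 before *Gc* and, on the opposite strand, from 112 to 107 before *Vtn*. No such match lay in the promoters of *Ahsg*, *Rbp4*, *Fetub* or *Ambp*. GTTAAT was found in 6.43% of all 32851 promoters of that length. CCAAT (33.8% of promoters) occurred at 2 places in *Alb* and at 1 in each of *Gc*, *Ambp*, 1 *Rbp4* promoter and 1 *Fetub* promoter, and TATAAA (12.4%) occurred in *Vtn*, 1 *Rbp4* promoter and 1 *Fetub* promoter. Of the cores bound by SRY and SOX proteins, AACAAT (9.42% of promoters) was in none of the 9 windows and AACAAAG (5.03%) was in 1 *Fetub* promoter, from 197 to 191 bases before its start. These motifs were chosen after the sequences had been seen, and a match is a description of letters, not of binding.

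Between 10318 and 10762 probes were detected (detection p-value under 0.01) per array. The third replicate of each group was the dimmest of its group, with a median intensity of 147 on both arrays against 156 to 165 on the others. A probe entered the test when it was detected on at least 3 of the 6 arrays, which left 10734 probes and 8 of the 9 member probes. Values below are log2 intensities after background correction and quantile normalization, and differences are hSRY-ON minus hSRY-OFF with the standard error from limma and Benjamini-Hochberg adjustment over all 10734 probes. Of the 8 member probes tested, 3 fell at an adjusted p under 0.05, against 17.3% of all tested probes, and 0 rose, against 15.8% of all tested probes. Counted by overlap alone, 3 of the 8 had all hSRY-ON arrays below all hSRY-OFF arrays, as had 24.6% of all tested probes, and 0 had them all above, as had 25.4%. The median difference was -0.03 over the 8 member probes and 0.02 over all tested probes. The median size of the difference, without its sign, was 0.18 for the member probes and 0.34 for all tested probes. The 3 that fell were *Alb*, *Ttr* and *Vtn*.

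**Figure D1:**
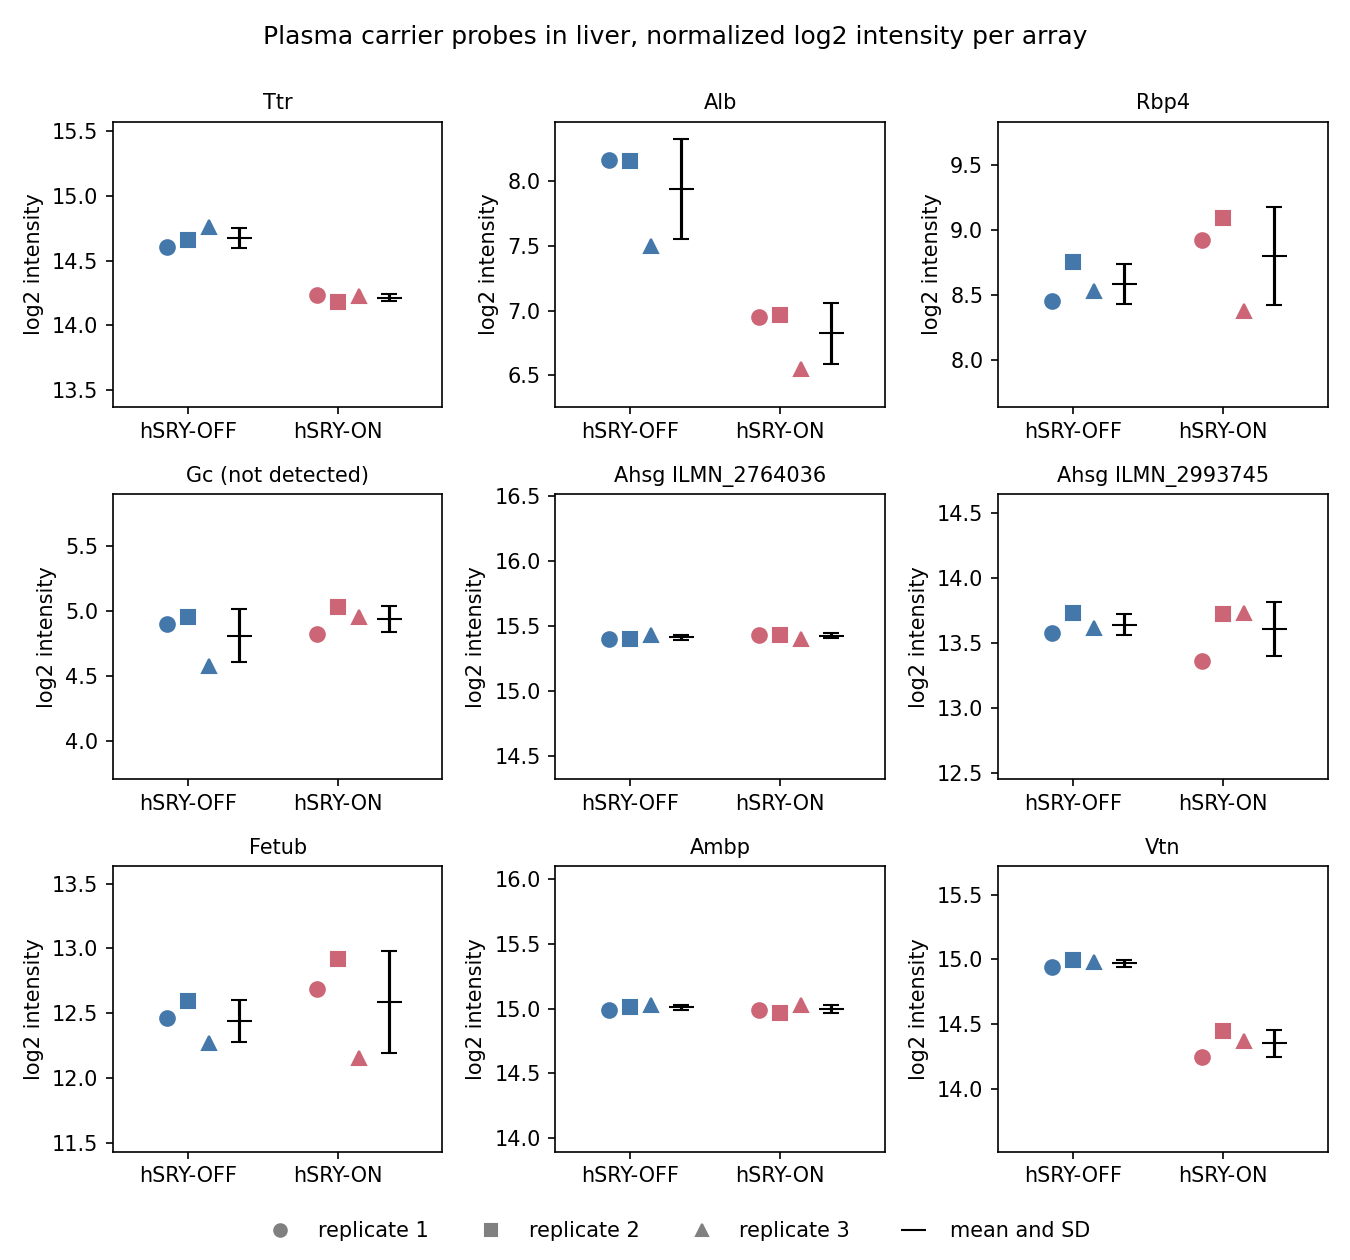
Normalized log2 intensity (vertical axes, each spanning the same 2.2 log2 units) of the 9 plasma carrier probes on each hSRY-OFF (blue) and hSRY-ON (red) array; marker shapes are replicate numbers and the black bars are group mean and SD, n = 3. The red points lie below all blue points for *Ttr*, *Alb* and *Vtn*, and the groups overlap in the other panels.

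Among the carriers of thyroxine and retinol, *Ttr* (ILMN_2443330) read 14.60, 14.66 and 14.76 on the hSRY-OFF arrays and 14.23, 14.18 and 14.22 on the hSRY-ON arrays. All hSRY-ON arrays were low, and a gap of 0.37 separated the groups. *Ttr* fell by 0.46 ± 0.11 (SE, n = 3 per group; limma adjusted p = 0.0174), which is 27.4% lower, with a 95% interval of -0.72 to -0.20. Before any correction its intensities were 25773, 27095 and 25614 against 20410, 19505 and 17191. *Ttr* was the least stable of the 3 calls: its adjusted p was 0.0544 to 0.0580 when any 1 hSRY-OFF array was left out, and 0.163 with no normalization between arrays.

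*Rbp4* (ILMN_1252185), whose product travels bound to transthyretin, read 8.46, 8.75 and 8.53 in hSRY-OFF and 8.93, 9.10 and 8.38 in hSRY-ON. The first and second hSRY-ON arrays were above every control and the third was below every control, so the groups overlapped. The difference was 0.22 ± 0.20 (limma adjusted p = 0.438), with an interval of -0.26 to 0.69 that spans a fall as well as a rise. It was 0.43 (limma adjusted p = 0.0533) without hSRY-ON replicate 3 and 0.07 without hSRY-ON replicate 2. Taken within each array, the log2 ratio of the *Ttr* probe to the *Rbp4* probe was 6.15, 5.91 and 6.23 in hSRY-OFF and 5.31, 5.09 and 5.85 in hSRY-ON. Every hSRY-ON array had the smaller ratio, by 0.68 on average (exact two-sided permutation test over arrays, p = 0.1, the smallest that 3 against 3 allows; 0.2 after adjustment over the 4 ratios computed).

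In the albumin family, *Alb* (ILMN_2651160) read 8.16, 8.15 and 7.49 in hSRY-OFF and 6.95, 6.97 and 6.55 in hSRY-ON. The third replicate was the lowest in both groups, and the lowest control still lay 0.52 above the highest hSRY-ON array. *Alb* fell by 1.11 ± 0.22 (limma adjusted p = 0.00852; interval -1.63 to -0.60), the largest difference among the members, and 636 of the 10734 tested probes had a difference at least as low. The probe was dim for a gene known for abundant liver transcripts, with intensities of 441, 448 and 269 in hSRY-OFF and 269, 245 and 202 in hSRY-ON, or 1.37 to 2.72 times the array median. Before correction the brightest hSRY-ON array was therefore level with the dimmest control, and the ratio of the group means was 0.618, against 0.462 after background correction and normalization. The size of the *Alb* difference depends on how background is removed, although its adjusted p ran from 0.00288 to 0.0395 over the 22 alternative settings. Why the probe was dim, and whether it reads the main albumin transcript, could not be checked. The fall is therefore that of this probe.

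*Gc* (ILMN_1224923) was detected on 0 of the 6 arrays and was not tested. Its intensities were 155, 160 and 130 in hSRY-OFF and 154, 154 and 143 in hSRY-ON, with detection p-values from 0.118 to 0.639. These values lay at the level of the background in both groups, so the array gives no direction for vitamin D binding protein. No position of this or any other probe on its transcript was given in the sources used here.

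**Figure D2:**
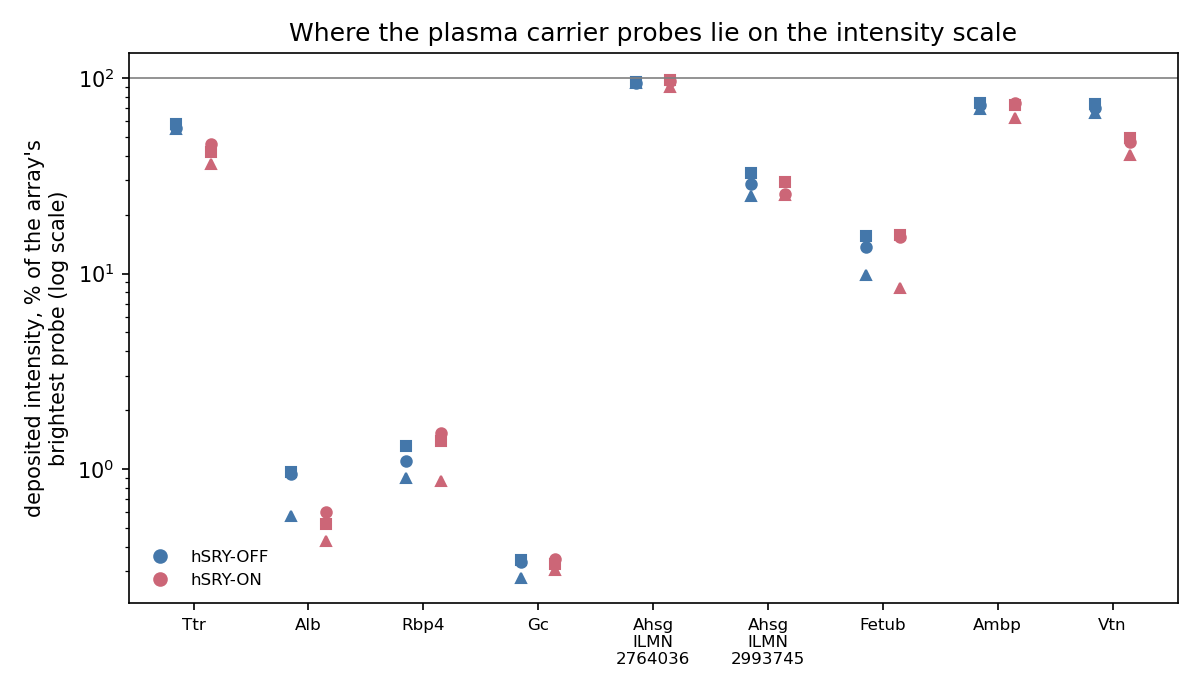
Deposited intensity of each plasma carrier probe as a percentage of the brightest probe on the same array (vertical axis, log scale), for hSRY-OFF (blue) and hSRY-ON (red) arrays, 1 point per array and shapes as replicate numbers. *Ahsg* probe ILMN_2764036 lies at 89.6 to 97.4% and *Ambp* at 62.5 to 74.7%, whereas *Alb*, *Rbp4* and *Gc* lie near or below 1.52%; brightness also depends on the probe and does not rank the genes.

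The *Ahsg* probes read fetuin-A at different brightness. ILMN_2764036 ranked 2 or 3 in brightness on every array, at 89.6 to 97.4% of the array's maximum, and quantile normalization left it only 15.40 or 15.43 on each array. Near that ceiling a rise could hardly be seen, and its difference was 0.01 ± 0.11 (limma adjusted p = 0.948). ILMN_2993745, at 25.0 to 32.6% of the maximum, read 13.58, 13.74 and 13.61 in hSRY-OFF and 13.37, 13.72 and 13.73 in hSRY-ON. One hSRY-ON array was lowest and the others lay among the controls. Its difference was -0.04 ± 0.14 (limma adjusted p = 0.862) with an interval of -0.37 to 0.29.

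*Fetub* (ILMN_2761645) read 12.46, 12.59 and 12.27 in hSRY-OFF and 12.69, 12.92 and 12.15 in hSRY-ON. As for *Rbp4*, the first and second hSRY-ON arrays were above the controls and the third was below them. The difference was 0.14 ± 0.21 (limma adjusted p = 0.628; interval -0.35 to 0.63). The log2 ratio of *Fetub* to the dimmer *Ahsg* probe differed by 0.18 between groups (exact two-sided permutation p = 0.5). *Ahsg* and *Fetub* are neighbours in the mouse genome, followed by *Hrg*, *Kng2* and *Kng1*, and no tested probe of these genes passed the threshold, the nearest being 1 of the *Hrg* probes (-1.09, limma adjusted p = 0.0505).

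*Ambp* (ILMN_2904137) read 14.99, 15.01 and 15.03 in hSRY-OFF and 14.99, 14.97 and 15.03 in hSRY-ON. The groups overlapped, with the second hSRY-ON array the lowest of all 6, and the difference was -0.02 ± 0.11 (limma adjusted p = 0.921) with an interval of -0.26 to 0.23. The probe ranked between 22 and 26 in brightness on every array, at 62.5 to 74.7% of the maximum. It was thus among the brightest probes in both groups.

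*Vtn* (ILMN_1234111), for the adhesive plasma protein vitronectin, read 14.94, 14.99 and 14.98 in hSRY-OFF and 14.24, 14.45 and 14.37 in hSRY-ON. All 3 hSRY-ON arrays were low, separated from the controls by 0.49. *Vtn* fell by 0.62 ± 0.11 (limma adjusted p = 0.00667; interval -0.88 to -0.35), or by 34.8%. The deposited intensities already showed it, at 32595, 34247 and 30956 against 20901, 23215 and 18990. The *Vtn* to *Ahsg* log2 ratio within arrays, taken with the dimmer *Ahsg* probe, was lower by 0.58 in hSRY-ON, with no overlap (exact two-sided permutation p = 0.1, the smallest possible; 0.2 adjusted).

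The brightest members did not move as 1 block. Among the 676 tested probes with a mean log2 intensity of 12 or more, 19.7% fell and 17.2% rose, and of the 6 member probes in that range *Ttr* and *Vtn* fell whereas both *Ahsg* probes, *Fetub* and *Ambp* did not pass the test. The remaining ratio, that of *Alb* to *Ttr*, differed by -0.65 (exact two-sided permutation p = 0.2) and its groups overlapped. The 3 probes outside the members whose 6 values followed *Alb* most closely, each taken relative to its own hSRY-OFF mean, were *Kank1*, *Lrrc3* and *Cbx2*, with root mean square distances of 0.10, 0.14 and 0.15 log2 units.

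**Figure D3:**
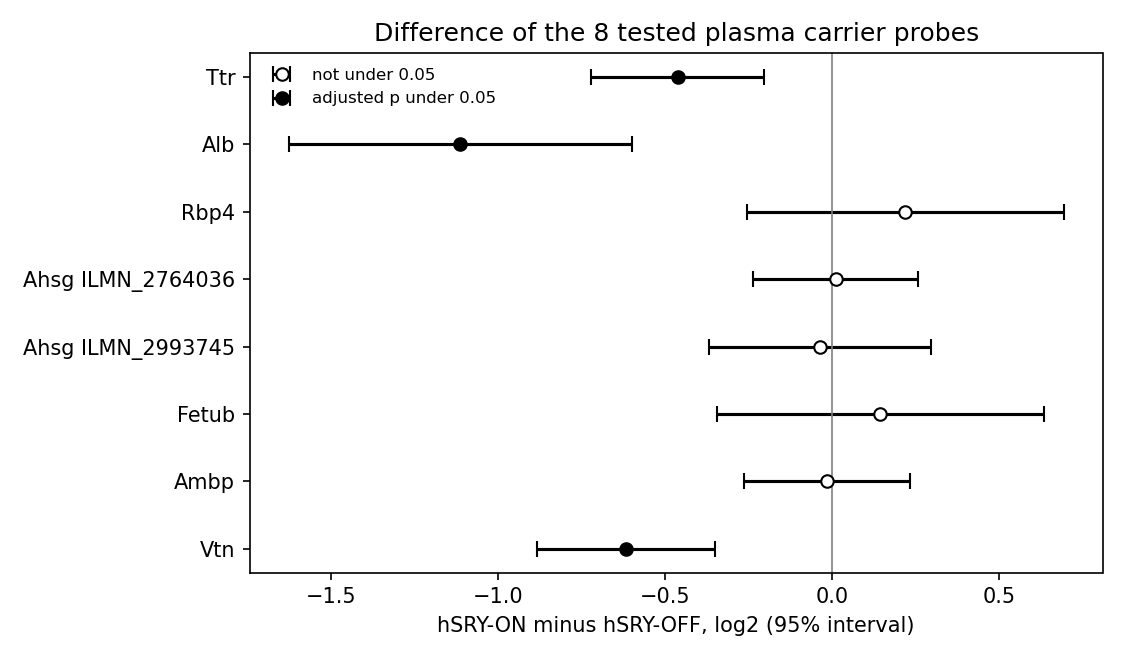
Difference between hSRY-ON and hSRY-OFF (horizontal axis, log2) of the 8 tested plasma carrier probes with 95% intervals from limma, n = 3 per group; filled points passed an adjusted p of 0.05. *Alb* (-1.11), *Vtn* (-0.62) and *Ttr* (-0.46) lie below 0 with their intervals, and the other intervals cross 0.

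Of 20 tested probes for 15 other carriers in plasma, 6 fell and 4 rose, with a median of -0.15, and the shares of all tested probes, here and for the lists that follow, were 17.3% that fell and 15.8% that rose. *Afp* and *Afm*, the neighbours and relatives of *Alb* that encode alpha-fetoprotein and afamin, fell (-1.96 and -1.94; limma adjusted p = 0.0223 and 0.000122). *Serpina6*, which encodes the corticosteroid carrier, was detected on no hSRY-ON array and was at least 31.5-fold lower (limma adjusted p = 7.29e-06). *Igfals*, whose product keeps insulin-like growth factors in the circulation, fell by 3.40, whereas *Orm1*, an acute phase carrier of basic drugs, rose by 3.25. *Serpina7*, the thyroxine binding globulin that shares its cargo with transthyretin, rose by 0.73 (limma adjusted p = 0.0399). The count of those that rose was 2 when any of hSRY-OFF replicate 1, hSRY-OFF replicate 3 or hSRY-ON replicate 2 was left out.

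Genes that act on the members' cargo were read against the same shares of all tested probes, 17.3% that fell and 15.8% that rose. The thyroid hormone counts and the count of retinoid probes that rose lay near them. For thyroid hormone, 2 of 9 tested probes fell and 2 rose (median 0.22): the 2 that fell were the probes of *Dio1*, the deiodinase that activates thyroxine, which was detected on no hSRY-ON array and was at least 4.91-fold and at least 1.54-fold lower, and *Klf9*, a thyroid hormone responsive gene, and *Ncor1*, a corepressor of its receptor, rose by 2.11 and 1.61. For retinoids, 5 of 16 probes fell and 3 rose (median 0.01): *Lrat*, which esterifies retinol for storage, was at least 2.23-fold lower, and both probes of *Retsat*, retinol saturase, rose, by 1.21 and 1.35. *Lrat* also stands among the stellate cell markers. For vitamin D, 2 of 5 probes fell (*Cyp3a11* and *Dhcr7*) and 3 rose, all of *Cyp27a1*, with a median of 1.15, and *Cyp2r1*, the liver vitamin D hydroxylase, had no tested probe. Leaving out any 1 array other than hSRY-ON replicate 3 left 1 vitamin D probe that rose, and without hSRY-ON replicate 3 the retinoid probes that rose came to 5.

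Protein partners of the members were read against the same shares of all tested probes, 17.3% that fell and 15.8% that rose. Bikunin from *Ambp* is joined to heavy chains encoded by the *Itih* genes, and while *Ambp* was at -0.02, *Itih1* (-1.63), *Itih2* (-1.505) and the 3 probes of *Itih4* (-0.81, -0.56 and -0.48) fell, with *Itih3* at -0.08 (limma adjusted p = 0.632). Over the list of bikunin and fetuin partners, 5 of 15 tested probes fell and 0 rose (median -0.30). Among vitronectin's receptors and ligands, 1 of 6 tested probes rose, *Itgb1* by 0.52, and 0 fell (median 0.54). That count of rises lay near the share of all tested probes. It was 0 without hSRY-OFF replicate 1 or without hSRY-ON replicate 2, and 3 without hSRY-ON replicate 3. Over all settings it ran from 0 to 3. Of 10 probes for genes of albumin recycling and uptake 0 passed in either direction (median -0.16), and *Fcgrt*, the receptor that returns albumin to the circulation, was at -0.24 ± 0.12 (limma adjusted p = 0.169).

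Among transcription factors of plasma protein genes, 7 of 18 tested probes fell and 2 rose (median -0.38). *Cebpa* (-1.66), *Foxa3* (-0.92) and *Prox1* (-1.17 and -0.79) fell, *Cebpb* rose by 1.39, and *Hnf4a* was at -0.09 (limma adjusted p = 0.768). The number that fell was 2, 3 and 4 without hSRY-OFF replicate 1, hSRY-OFF replicate 2 and hSRY-ON replicate 2, in that order, and the number that rose was 1 without any 1 array other than hSRY-ON replicate 3. Of 36 tested probes for the secretory pathway, which all these proteins pass through, 16 fell and 0 rose (median -0.23). They included *Sec61b* of the translocon (-1.45 and -1.26), *Lman1* and *Mcfd2*, the cargo receptor pair that moves secreted glycoproteins to the Golgi (-0.75 and -0.72), and *Ssr2* (-0.68). Leaving out 1 array gave 5 to 15 secretory probes that fell, with fewer than 11 without hSRY-OFF replicate 1 (5), hSRY-OFF replicate 2 (6) and hSRY-ON replicate 1 (10), and 4 rose without hSRY-ON replicate 3. With no normalization between arrays, 8 fell. Of 22 tested probes for acute phase proteins and their relatives, 5 fell, from 3 genes, and 3 rose (median -0.03). Both counts lay near the shares of all tested probes. *Saa4* was at -2.87, *Saa3* at -1.17, *Orm1* at 3.25 and the 3 *Itih4* probes as above. The number that rose was 1 without hSRY-OFF replicate 1 or hSRY-OFF replicate 3. The medians of these 10 lists were the same with genes undetected in 1 group set at their bounds.

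**Figure D4:**
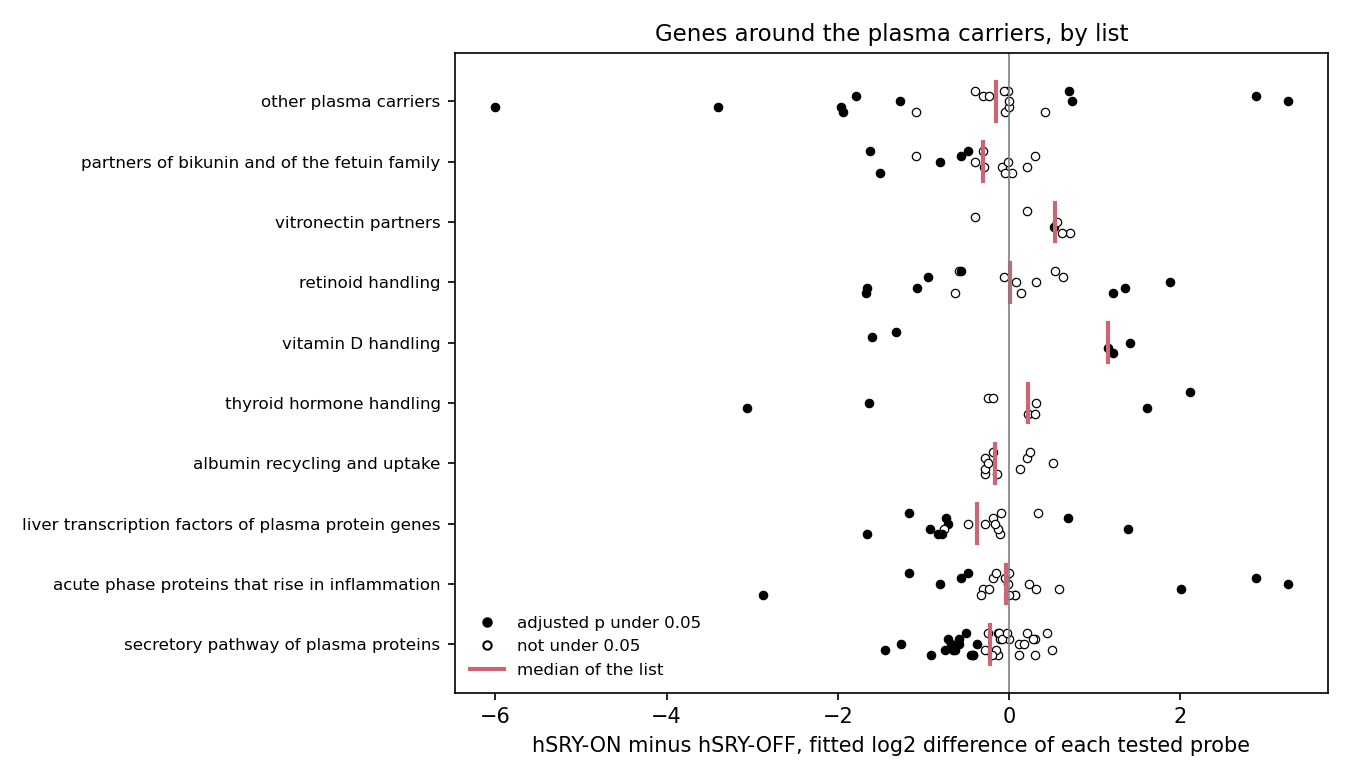
Fitted difference between hSRY-ON and hSRY-OFF (horizontal axis, log2) of each tested probe in 10 lists of genes around the plasma carriers (vertical axis, rows spread for legibility), with red bars at the list medians; filled points passed an adjusted p of 0.05. The secretory list holds 16 filled points below 0 and 0 above; points of genes undetected in 1 group are fitted values, not bounds.

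Markers of several cell types moved with the groups. Summed normalized levels of 17 hepatocyte genes outside the members ranged from 251542 to 269000 in hSRY-OFF and from 207719 to 248298 in hSRY-ON. Of 19 tested probes, 8 fell, from 5 genes, and 0 rose. *Apoa1*, *Apoa2*, *Fga*, *Fgg* and *F2* were among those that did not pass. Also short of the threshold, with positive differences, were *Cps1* (0.49 and 0.45) and *Ass1* (0.40). *Tat* and *Tdo2* were detected on no array at this age. The 12 erythroid genes summed to 66118 to 86987 in hSRY-OFF and 86606 to 99494 in hSRY-ON, ranges that overlapped slightly. Of their 12 tested probes 6 rose, from 4 genes. *Hba-a1* had a mean of 15.50 and an SD of 0 in both groups, so it added the same amount to every sum. Kupffer cell and stellate cell sums ran lower in hSRY-ON (11080 to 13727 against 13950 to 17341, with 4 probes that fell and 1 that rose, and 10283 to 12468 against 13450 to 15835, with 2 that fell and 1 that rose). Such sums weigh the brightest probes most. Among the stellate probes, *Reln* went from a mean of 12.82 to 12.16, whereas 1 *Dcn* probe went from 12.01 to 12.17. The stellate probe that rose was *Des* (0.77). Endothelial sums overlapped (11163 to 13814 and 10922 to 13725; 1 fell and 4 rose), as did neutrophil sums (48658 to 55888 and 32540 to 99590; 0 of 11 passed). Biliary genes summed to 705 to 853 and 539 to 584, with *Krt19* and *Sox9* undetected, and pancreas acinar genes to 708 to 821 and 949 to 1841, with *Prss2* and *Pnlip* undetected. The part of these shifts in the falls of *Alb*, *Ttr* and *Vtn* was not tested, and in whole liver a smaller share of hepatocytes and less RNA per hepatocyte cannot be told apart.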

How the data were processed

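Per the labels, RNA was purified with Trizol Plus and labelled as biotinylated cRNA. The authors deposited 1 table with a mean bead intensity on a linear scale, not normalized, and a detection p-value for each probe and array (lowest deposited intensity 108). Scanner software and genome build were not given in the sources used here. The methods name TCC, a count package, which was not used for these intensities. Groups and replicate numbers came from the sample titles.

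Background was removed with nec (offset 16) in limma 3.58.1 under R 4.3.3. Arrays were then quantile-normalized and log2-transformed. Probes with a detection p-value under 0.01 on at least 3 of the 6 arrays were fitted with lmFit and eBayes, two-sided, with Benjamini-Hochberg adjustment and a threshold of 0.05. The steps were tested on simulated data. Precision is limited by the 3 arrays per group. A probe undetected throughout 1 group has only a bound: the brighter group's mean over the dim group's mean of the higher of its own value and the lowest detected signal.

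The members, the lists of related and marker genes and the motifs were chosen with earlier results of these data known, and list genes were matched through RefSeq symbols and older names (904 of 18138 table symbols unmatched). All member probes are named, with up to 4 called probes per list by smallest p and partners by name; 1 called retinoid gene is not reported here. Alternatives covered background, offset, normalization, filter, variance model, replicate block, threshold, probes per gene and each array left out.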

Additional observations from a re-analysis of the deposited data

How the results depend on the processing

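*Alb* kept its call under all 22 alternatives (-1.34 to -0.64), *Vtn* under 21 (-0.66 to -0.57) and *Ttr* under 16 (-0.49 to -0.40, adjusted p 0.00192 to 0.163). With no normalization between arrays, 1 member probe fell (*Alb*; *Vtn* adjusted p = 0.0505), and 1010 of all tested probes rose. At a threshold of 0.01, 972 probes fell and 693 rose. With the deposited intensities used as they are, an alternative chosen after seeing the data, 1150 fell and 762 rose. Leaving out 1 array gave 1141 to 2116 probes that fell and 893 to 1944 that rose, against 1854 and 1700. The counts were lowest when hSRY-OFF replicate 1 was left out (1141 and 893), followed by hSRY-OFF replicate 2 (1191 and 975). The cause was not tested.

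Signs turned only in probes that passed no test. *Ahsg* ILMN_2764036 was at -0.0370 with median scaling, -0.0195 with no normalization and -0.0195 as deposited, and *Fetub* was at -0.0475, -0.0300 and -0.0293. With 1 array left out, *Ahsg* ILMN_2993745 ranged from -0.105 to 0.0859 and *Fetub* from -0.0218 to 0.367.

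Deviations from the group means correlated little between same-numbered arrays (0.02, 0.10 and 0.05). With 3 arrays per group these values cannot settle whether the numbers pair the animals. With the replicate block, 3 member probes fell, with 1645 of all tested probes lower and 1565 higher. Signal over background limits *Alb* and *Rbp4*, and the top of the scale limits *Ahsg* ILMN_2764036.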
